A study of Mus musculus with 6 samples.

Results

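The TNF receptor superfamily on regulatory T (Treg) cells was followed through 10 receptor genes, *Tnfrsf1a*, *Tnfrsf1b*, *Tnfrsf4*, *Tnfrsf9*, *Tnfrsf18*, *Tnfrsf25*, *Tnfrsf26*, *Tnfrsf13b*, *Cd27* and *Fas*. They were taken by symbol from a table of 24420 genes, in which each of the 10 had 1 entry. Their RNA was measured by RNA sequencing in YFP+ cells from lymph nodes of adult female C57BL/6 mice, which were first selected with CD4 beads and then sorted for YFP. The 3 OGT-sufficient samples came from Foxp3YFP-Cre/wt Ogtwt/fl females, and the 3 OGT-deficient samples from Foxp3YFP-Cre/wt Ogtfl/fl females. OGT is the enzyme that attaches O-GlcNAc, a single sugar, to proteins in the nucleus and cytoplasm. All 6 samples carried YFP-Cre, a fusion driven by the *Foxp3* locus on 1 X chromosome, so YFP marked the Treg cells that expressed Cre, and the females also held Treg cells without it. The sources used here do not say on which X chromosome the floxed allele of the Ogtwt/fl females lies, nor that each replicate was 1 mouse. The p-values therefore set group differences against the spread between these samples, which need not be the spread between mice.

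Receptors of this superfamily bind trimeric ligands of the TNF family through cysteine-rich repeats outside the cell. Most of them recruit TRAF adaptors, which lead to NF-kB, while those with a cytoplasmic death domain (*Tnfrsf1a*, *Fas* and *Tnfrsf25* among the 10) recruit TRADD or FADD and can also lead to caspase-8. Treg cells are known for high levels of several of the costimulatory members, among them GITR (*Tnfrsf18*), OX40 (*Tnfrsf4*) and TNFR2 (*Tnfrsf1b*), which in the thymus link T-cell receptor signal strength to responsiveness to IL-2.

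Total counts were between 3375454 and 4103552 per sample, and the 10 receptors had between 48 and 756 counts in each. The ribosomal RNA entry *Rn45s* made up 24.18% of these counts in OGT-sufficient replicate 3 and 30.58% to 37.05% in the other 5 samples. The part of this share in the differences between samples was not tested. All 10 passed edgeR's low-count filter, as did 10949 genes in all. Levels are given as CPM, counts per 1000000 of the library size after TMM scaling, which corrects for differences in library composition. The 3 values listed for a group are those of replicates 1, 2 and 3, in this order, and SE is the standard error of a log2 fold change. *Ogt* had 150, 170 and 252 CPM among OGT-sufficient samples and 84.4, 67.3 and 96.4 CPM among OGT-deficient samples. Its groups did not overlap, beside 13.2% of all genes tested. The log2 fold change of *Ogt* was -1.21, with an adjusted p = 0.191 by edgeR's quasi-likelihood test. The floxed gene itself thus did not pass an FDR of 0.1 in this fit. It did pass with DESeq2, with edgeR's exact test and without the low-count filter. OGT-sufficient replicate 3 stood apart, with a count for 18346 genes against 14412 to 15197 in the other 5 samples. Markers of Treg cells were present in every sample, with *Foxp3* between 189 and 300 CPM. B cell, macrophage, neutrophil and erythroid markers were present too, and their sums are given beside the receptors below. The 11 macrophage markers summed to 1345 to 5874 CPM, against 2239 to 3484 CPM for the 10 Treg markers. The highest macrophage marker, *Vcam1* (441 to 2259 CPM), was above *Foxp3* in every sample. In such bulk samples, fewer cells of a type and less RNA per cell cannot be told apart.

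RNA of all 10 receptors was present in every OGT-sufficient and every OGT-deficient sample. The largest difference was that of *Tnfrsf18*, which encodes GITR and was 1.48-fold higher in OGT-deficient cells (95% interval 1.01 to 2.17), and every OGT-deficient sample lay above every OGT-sufficient one. It was the only receptor of the 10 with an unadjusted p under 0.05, beside 7.1% of all genes tested (3.09% higher and 4.01% lower in OGT-deficient cells). It was also the only one whose groups did not overlap, beside 13.2% of all genes tested (5.72% higher and 7.48% lower). None of the 10 passed an FDR of 0.1, which 0.0274% of all genes tested did, and their adjusted p lay between 0.685 and 0.990 by edgeR's quasi-likelihood test. Of the 10 log2 fold changes (OGT-deficient minus OGT-sufficient), 6 were positive and 4 negative, with a median of 0.10, against -0.02 over all genes tested, of which 52.7% were negative. The median of the 10 was 0.01 without OGT-sufficient replicate 3, 0.21 without OGT-sufficient replicate 2 and 0.18 without OGT-sufficient replicate 1 or OGT-deficient replicate 3. Of the 4 negative values, 1 (*Tnfrsf1a*) was positive with DESeq2 and 3 (*Tnfrsf1a*, *Tnfrsf26* and *Cd27*) were positive without the low-count filter. The 95% interval of 9 of the receptors lay within a 2-fold change in either direction, and differences smaller than these intervals could not be resolved. For a single receptor, the smallest two-sided p of an exact permutation test with 3 samples a group is 0.1, so the receptors were read from the fit over all genes.

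**Figure D1:**
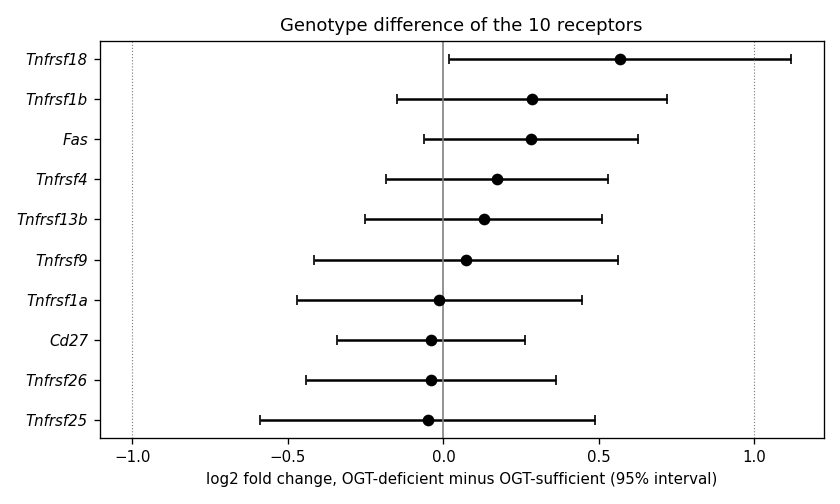
Log2 fold change of each receptor, OGT-deficient minus OGT-sufficient, with its 95% interval from the fit over all genes (n = 3 samples a group); dotted lines mark a 2-fold change in either direction. *Tnfrsf18*, at 0.57, is the only receptor whose interval, from 0.02 to 1.12, lies above 0, and it is also the only one that reaches past the 2-fold line.

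Among the costimulatory receptors, GITR (*Tnfrsf18*) is a TRAF-binding receptor carried at high density by Treg cells. *Tnfrsf18* had 59.9, 63.6 and 30.8 CPM among OGT-sufficient samples. It had 83.6, 76.9 and 68.1 CPM among OGT-deficient samples. The lowest OGT-deficient sample was thus close to the highest OGT-sufficient one, and OGT-sufficient replicate 3 was far below the other 5. The means were 51.4 ± 17.9 CPM (SD, n = 3) and 76.2 ± 7.75 CPM (SD, n = 3). The log2 fold change was 0.57 (SE 0.24, 95% interval 0.02 to 1.12), with an adjusted p = 0.685 by edgeR's quasi-likelihood test. Without OGT-sufficient replicate 3 it was 0.31, with the unadjusted p still under 0.05. Without OGT-deficient replicate 1 it was 0.50 and without OGT-deficient replicate 2 it was 0.59, and in both cases the unadjusted p was above 0.05. The annotation places an antisense gene, *Gm16008*, over 414 exonic bases of *Tnfrsf18*, and the strand setting of the counting is not given in the sources used here, so reads of the pair cannot be told apart.

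OX40 (*Tnfrsf4*), the gene next to *Tnfrsf18*, encodes a costimulatory receptor of activated T cells and Treg cells. *Tnfrsf4* had 110, 114 and 76.9 CPM among OGT-sufficient samples, and 119, 108 and 112 CPM among OGT-deficient samples. OGT-sufficient replicate 3 was again the lowest, and the other 5 samples lay within a narrow range that both groups shared. Its log2 fold change was 0.17 (SE 0.16, 95% interval -0.19 to 0.53), and 0.02 without OGT-sufficient replicate 3. 4-1BB (*Tnfrsf9*), a receptor that T cells raise after activation, had 56.6, 65.2 and 34.2 CPM among OGT-sufficient samples and 55.2, 58.4 and 50.3 CPM among OGT-deficient samples. The groups of *Tnfrsf9* overlapped, with the highest and the lowest sample both OGT-sufficient. Its log2 fold change was 0.07 (SE 0.22), and it turned to -0.15 without OGT-sufficient replicate 3.

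CD27 (*Cd27*), the receptor of CD70 on naive and memory T cells, had 165, 167 and 169 CPM among OGT-sufficient samples and 191, 158 and 138 CPM among OGT-deficient samples. The OGT-sufficient samples of *Cd27* differed little and fell inside the wider range of the OGT-deficient ones. Its standard error, 0.13, was the smallest of the 10 receptors, and its log2 fold change of -0.04 had a 95% interval from -0.34 to 0.26. A microRNA gene, *Mir8113*, is annotated on the same strand over 129 exonic bases of *Cd27* and had at most 3 counts in any sample. DR3 (*Tnfrsf25*), a death-domain receptor that binds TL1A and can expand Treg cells, had 14.2, 20.5 and 19.0 CPM among OGT-sufficient samples and 12.4, 20.5 and 18.9 CPM among OGT-deficient samples. The lowest sample of *Tnfrsf25* in each group was the one numbered 1, and the other 4 samples lay between 18.9 and 20.5 CPM. Its log2 fold change was -0.05 (SE 0.24, 95% interval -0.59 to 0.49).

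**Figure D2:**
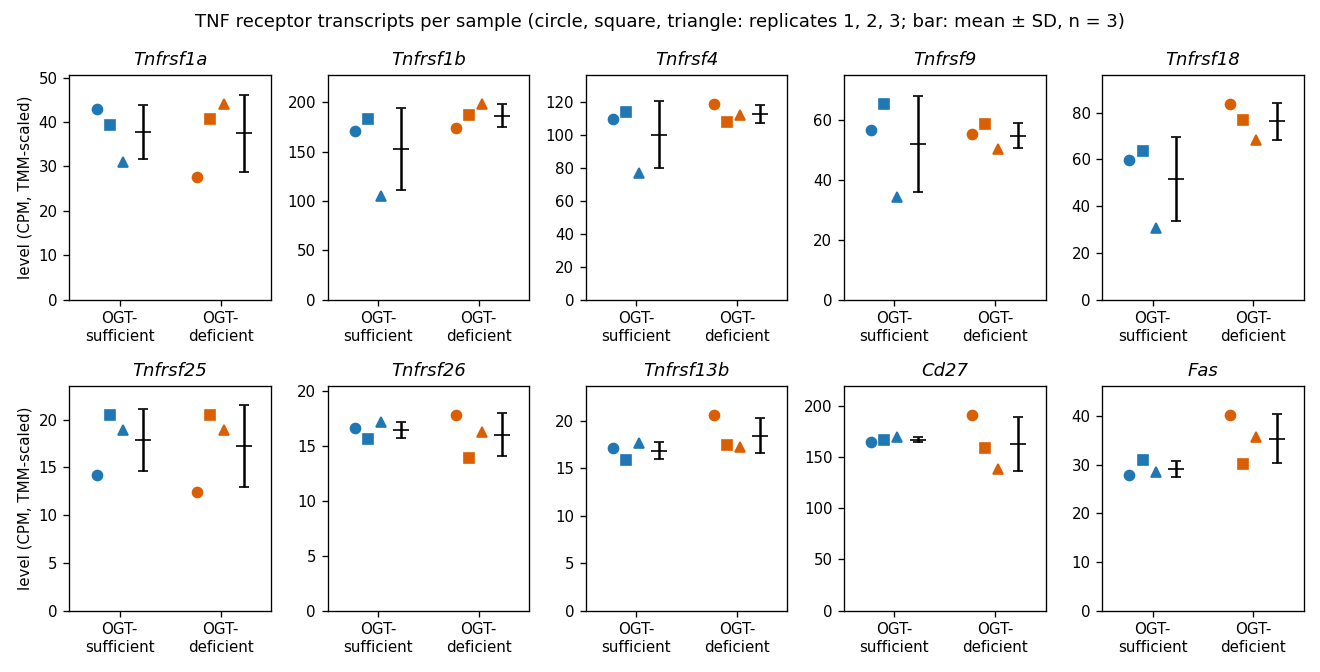
Level of each receptor in every sample, in TMM-scaled CPM on axes that start at 0, with OGT-sufficient samples in blue and OGT-deficient samples in orange; circles, squares and triangles are replicates 1, 2 and 3, and bars give the mean ± SD (n = 3). The 3 orange points of *Tnfrsf18*, from 68.1 to 83.6 CPM, lie above its blue points, while in each of the other 9 receptors the groups overlap.

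The 2 receptors of TNF itself differ in that TNFR1 (*Tnfrsf1a*) has a death domain and is found on most cell types, while TNFR2 (*Tnfrsf1b*) has none, binds TRAF2 and is prominent on Treg cells. *Tnfrsf1b* had 171, 183 and 106 CPM among OGT-sufficient samples and 174, 187 and 198 CPM among OGT-deficient samples. OGT-sufficient replicate 3 lay far below the other samples, and the rest overlapped between groups. The log2 fold change of *Tnfrsf1b* was 0.28 (SE 0.19, 95% interval -0.15 to 0.72, adjusted p = 0.781 by edgeR's quasi-likelihood test), and 0.08 without OGT-sufficient replicate 3.

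*Tnfrsf1a* had 43.0, 39.3 and 31.1 CPM among OGT-sufficient samples and 27.6, 40.7 and 44.0 CPM among OGT-deficient samples. Each group held 1 low sample, OGT-sufficient replicate 3 and OGT-deficient replicate 1, and the means, 37.8 ± 6.12 and 37.5 ± 8.69 CPM (SD, n = 3 each), were close. Its log2 fold change was -0.01 (SE 0.20, 95% interval -0.47 to 0.44). The 2 samples low in *Tnfrsf1a* were also the 2 with the lowest summed level of the 11 macrophage markers, 1898 and 1345 CPM against 3595 to 5874 CPM in the other 4. *Vcam1* was the highest of these 11 markers, at 441 to 2259 CPM, and none of the 11 was at 0. The part of macrophage RNA in the level of *Tnfrsf1a* was not tested. *Tnfrsf1b* counts were 3.98, 4.64 and 3.4 times those of *Tnfrsf1a* among OGT-sufficient samples and 6.32, 4.58 and 4.50 times among OGT-deficient samples, ranges that overlapped.

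The death receptor Fas (*Fas*), which binds Fas ligand and triggers apoptosis of activated T cells, was the receptor with the second lowest p. *Fas* had 27.8, 31.0 and 28.4 CPM among OGT-sufficient samples and 40.2, 30.1 and 35.6 CPM among OGT-deficient samples. OGT-deficient replicates 1 and 3 lay above all OGT-sufficient samples, and OGT-deficient replicate 2 lay among them. The means were 29.1 ± 1.69 and 35.3 ± 5.08 CPM (SD, n = 3 each), which gave 0.28 as the log2 fold change (SE 0.15, 95% interval -0.06 to 0.62). With edgeR's quasi-likelihood test this gave an adjusted p of 0.754. Without OGT-deficient replicate 2 the log2 fold change was 0.42 and the unadjusted p was under 0.05, which it was not with all 6 samples, and without OGT-deficient replicate 1 the log2 fold change was 0.18.

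*Tnfrsf26*, a mouse receptor gene of the family whose function is less well known, and *Tnfrsf13b* varied least, by 1.28-fold and 1.30-fold between their lowest and highest samples. *Tnfrsf26* had 16.6, 15.6 and 17.1 CPM among OGT-sufficient samples and 17.8, 13.9 and 16.2 CPM among OGT-deficient samples. Its log2 fold change was -0.04 (SE 0.18, 95% interval -0.44 to 0.36). An antisense gene, *E230032D23Rik*, covers 107 exonic bases of *Tnfrsf26*, whose reads could likewise not be told apart. *Tnfrsf13b* encodes TACI, a receptor of BAFF and APRIL best known on B cells, and had 17.1, 15.9 and 17.6 CPM among OGT-sufficient samples and 20.6, 17.5 and 17.3 CPM among OGT-deficient samples. The groups of both receptors overlapped, and the log2 fold change of *Tnfrsf13b* was 0.13 (SE 0.17, 95% interval -0.25 to 0.51). It was 0.04 without OGT-deficient replicate 1, 0.20 without OGT-deficient replicate 2 and 0.21 without OGT-deficient replicate 3. The summed level of the 9 B cell markers was 171, 98.9 and 355 CPM among OGT-sufficient samples and 160, 126 and 90.2 CPM among OGT-deficient samples. Within each group *Tnfrsf13b* and the B cell sum put the 3 samples in the same order, while across groups the highest *Tnfrsf13b* (OGT-deficient replicate 1) and the highest B cell sum (OGT-sufficient replicate 3) were in different samples. None of these 9 markers was at 0, and the part of B cell RNA in the level of *Tnfrsf13b* was not tested.

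OGT-sufficient replicate 3 had the lowest level of 4 of the 10 receptors, *Tnfrsf1b*, *Tnfrsf4*, *Tnfrsf9* and *Tnfrsf18*, beside 23.8% of all genes tested whose lowest level was in that sample. Of the other 6, 4 (*Tnfrsf25*, *Tnfrsf26*, *Tnfrsf13b* and *Cd27*) were at or above their own mean over the 6 samples there. Relative to its mean over the 6 samples, *Tnfrsf18* was at -0.98 there on the log2 scale, *Tnfrsf1b* at -0.66, *Tnfrsf9* at -0.61 and *Tnfrsf4* at -0.46. OGT-deficient replicate 1 had the highest level of 6 receptors and the lowest of 2, *Tnfrsf1a* and *Tnfrsf25*, so the 10 receptors did not move together in it. Of all genes tested, 15.2% were highest and 18.9% lowest in that sample.

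**Figure D3:**
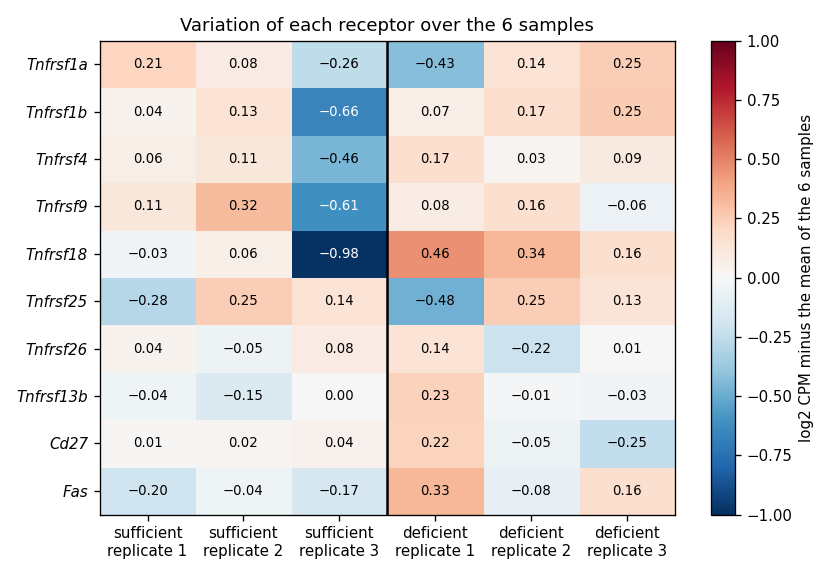
Log2 CPM of each receptor in each sample minus its mean over the 6 samples, with OGT-sufficient samples left of the black line and OGT-deficient samples right of it; red is above the mean and blue below. The 3 darkest cells are those of *Tnfrsf18*, *Tnfrsf1b* and *Tnfrsf9* in OGT-sufficient replicate 3, where *Tnfrsf4* is also blue, while *Cd27*, *Tnfrsf13b* and *Tnfrsf26* are near their mean in that sample.

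Markers of cells other than Treg cells also moved with OGT-sufficient replicate 3. The summed level of the 10 Treg markers was 2239 CPM there, the lowest of the 6 samples, against 2971 to 3484 CPM in the others, while the neutrophil markers (147 against 11.9 to 37.4 CPM) and erythroid markers (839 against 212 to 472 CPM) were highest there, as were the B cell markers given above. Of the 5 neutrophil markers in the table none was at 0, and of the 6 erythroid markers *Hba-a1* was. The 6 CD8 and NK markers summed to 41.1 CPM in that sample against 19.4 to 37.4 CPM in the others, and the 7 conventional and follicular helper T markers, of which *Il17a* was at 0, to 352 against 199 to 335 CPM. The part of these cells in the low levels of the 4 receptors was not tested. Of the 10 Treg markers 9 were higher and 1 lower in OGT-deficient samples, with a median log2 fold change of 0.22. Groups did not overlap in 3 of them, all higher, beside 5.72% of all genes tested. *Lrrc32* (log2 fold change 0.75) and *Gpr83* (1.30) had an unadjusted p under 0.05, both higher, beside 3.09% of all genes tested. Neither passed an FDR of 0.1 by edgeR's quasi-likelihood test (adjusted p = 0.299 and 0.216). The part of this shift in the receptor differences was not tested.

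The markers of other cell types were also compared between groups. All 9 B cell markers were lower in OGT-deficient samples, with a median log2 fold change of -0.94, and *Cd79b* (-0.71) and *Ebf1* (-1.67) had an unadjusted p under 0.05. The 3 neutrophil markers tested were lower, *S100a9* (-2.86) and *Mpo* (-2.19) with an unadjusted p under 0.05, as were the 4 erythroid markers tested, none of them past it. Of the 4 CD8 and NK markers tested 3 were lower, *Nkg7* (-1.0) with an unadjusted p under 0.05, and of the 11 macrophage markers 10 were higher, none of them past it. Over all genes tested, 7.1% had an unadjusted p under 0.05 (4.01% lower and 3.09% higher). No marker of these lists passed an FDR of 0.1, and those named with a log2 fold change were singled out after their values were seen. Without OGT-sufficient replicate 3, 6 of the 9 B cell markers were lower, with a median of -0.04 and 0 at an unadjusted p under 0.05, and the 4 erythroid markers were all higher. In that fit *S100a9*, *Nkg7*, *Lrrc32* and *Gpr83* remained under 0.05, joined by *Ikzf2* and *Cxcr5*, both lower. Of the 11091 genes tested in it, 768 were under 0.05. The part of these shifts in the receptor differences was not tested.

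Set against T-cell transcripts of the same sample, the groups of *Tnfrsf18* stayed apart and those of the other 9 receptors overlapped, beside 14% of all genes tested without overlap on this scale. Per 100 counts of *Cd3e*, *Cd3d* and *Cd4* together, *Tnfrsf18* had 5.01, 5.18 and 3.36 counts among OGT-sufficient samples and 6.09, 5.96 and 6.11 among OGT-deficient samples. The 3 OGT-deficient values were nearly equal and lay above the OGT-sufficient ones, a difference of 0.45 in mean log2 ratio. On this scale *Tnfrsf4* had 9.19, 9.31 and 8.38 counts among OGT-sufficient samples and 8.67, 8.36 and 10.1 among OGT-deficient samples, and its low value in OGT-sufficient replicate 3 was no longer separate, with a difference of 0.01. *Cd27* was highest in OGT-sufficient replicate 3 on this scale, at 18.4 counts against 12.3 to 13.9 in the other 5 samples.

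Per 100 *Foxp3* counts, the groups of *Tnfrsf18* overlapped, with 26.0, 21.2 and 16.3 counts among OGT-sufficient samples and 29.4, 30.8 and 23.3 among OGT-deficient samples, a difference of 0.41 in mean log2 ratio. On that scale 0 of the 10 receptors and 11% of all genes tested were without overlap. Per 100 counts of its neighbour *Tnfrsf4*, *Tnfrsf18* had 54.5, 55.7 and 40.1 counts among OGT-sufficient samples and 70.3, 71.4 and 60.8 among OGT-deficient samples. The difference in mean log2 ratio was 0.44. This ratio was formed for *Tnfrsf18* alone, and the share of all genes without overlap on it was not computed. The separation of groups is therefore not read from it. *Foxp3* itself had a log2 fold change of 0.20 (SE 0.17).

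To compare receptors with each other, the CPM level was divided by the length of the merged exons in kb. In OGT-sufficient cells the highest levels per kb were those of *Tnfrsf4* (73.5 ± 15 CPM per kb, SD, n = 3) and *Cd27* (71.7 ± 0.891), whose samples overlapped. *Tnfrsf1b* (40.1 ± 10.9), *Tnfrsf18* (33.7 ± 11.8), *Tnfrsf9* (19.1 ± 5.88), *Tnfrsf1a* (14.6 ± 2.36) and *Fas* (14.1 ± 0.818) followed, each overlapping with the next in the order. *Tnfrsf25* (7.85 ± 1.45), *Tnfrsf13b* (5.95 ± 0.315) and *Tnfrsf26* (5.11 ± 0.234) were the lowest, and each was separate from its neighbours. Every sample of *Tnfrsf1b* was above every sample of *Tnfrsf1a* on this scale.

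In OGT-deficient cells *Tnfrsf4* (82.8 ± 4.11 CPM per kb) and *Cd27* (69.8 ± 11.4) were again the highest. *Tnfrsf18* (50.01 ± 5.08) came before *Tnfrsf1b* (48.8 ± 3.11), but these 2 overlapped, and both were separate from *Cd27* above and *Tnfrsf9* (20.1 ± 1.5) below. *Fas* (17.1 ± 2.46) came before *Tnfrsf1a* (14.5 ± 3.35), which it overlapped. *Tnfrsf25* (7.57 ± 1.88), *Tnfrsf13b* (6.51 ± 0.664) and *Tnfrsf26* (4.97 ± 0.608) were again the lowest, and here *Tnfrsf25* and *Tnfrsf13b* overlapped. Dividing by the length of the longest transcript instead placed *Cd27* before *Tnfrsf4* in both groups, at 107 and 92.0 CPM per kb in OGT-sufficient cells. With that length *Tnfrsf18* came before *Tnfrsf1b* and *Fas* before *Tnfrsf1a* in both groups, and *Tnfrsf18* was separate from *Tnfrsf1b* in OGT-deficient cells (64.1 and 48.8 CPM per kb), so the order within these pairs depended on the length used.

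**Figure D4:**
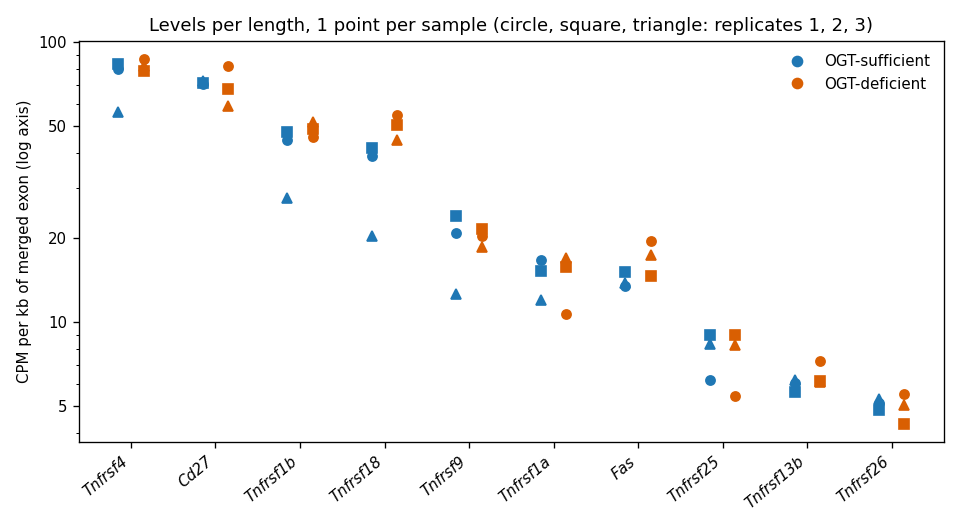
Level per length of each receptor in every sample, in CPM per kb of merged exon on a log axis, ordered by the OGT-sufficient mean; blue is OGT-sufficient and orange OGT-deficient, and circles, squares and triangles are replicates 1, 2 and 3. The levels run from about 5.11 CPM per kb for *Tnfrsf26* to 73.5 CPM per kb for *Tnfrsf4* (OGT-sufficient means), and the blue triangles of *Tnfrsf4*, *Tnfrsf1b*, *Tnfrsf18* and *Tnfrsf9* lie below the other points of these genes.

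Of the 10 genes, 5 lie on chromosome 4 and 2 on chromosome 6 (GRCm38, GENCODE M21), with 1 each on chromosomes 7, 11 and 19. *Tnfrsf4* (chr4:156013843-156016612) and *Tnfrsf18* (chr4:156026164-156028895) lie 9551 bases apart on the same strand, and *Cd27* (chr6:125232622-125237010) and *Tnfrsf1a* (chr6:125349362-125362484) 112351 bases apart on opposite strands. The first pair shared its lowest sample, OGT-sufficient replicate 3. The second did not, since *Cd27* was at 0.04 from its mean in that sample on the log2 scale and *Tnfrsf1a* at -0.26. Along its longest annotated transcript, *Tnfrsf18* shared 18.2% of its 50-base windows with *Gm16008*, in either orientation. The longest transcripts of the other 9 receptors shared none with another gene's transcripts, although the merged exons of *Tnfrsf26* and *Cd27* have the overlaps given above.

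STAT5, which acts downstream of IL-2, binds the palindrome TTCNNNGAA, and these letters were searched for in RefSeq promoter windows (GRCm38.p6), from 250 bases before to 50 bases after an annotated start. For 9 of the 10 genes the table held windows, 11 in all. The letters occurred in a window of 6 genes, 6 of 11 windows, and in 8.3% of all 32851 promoter windows of the same length. The 6 matches are shown with up to 10 bases on either side, in the direction of the gene, because they let the core letters and their distance from the start be compared between receptors. Capitals mark the match.
Tnfrsf18: tgctctacacTTCACAGAAggcctttaca
Tnfrsf1b: agcgcattcaTTCCCGGAAgagatgctgg
Tnfrsf9: caacagctgaTTCCAAGAAacccttcaga
Tnfrsf25: gggcctccacTTCTCAGAAggcatggctg
Tnfrsf1a: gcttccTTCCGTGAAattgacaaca
Fas: tcaaagcgatTTCTGGGAAgacctgaata

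The *Tnfrsf18* match (chr4:156026213-156026241, plus strand) begins 99 bases before the RefSeq start, inside a 5′ exon of another annotated transcript of the gene. That of *Tnfrsf1b* (chr4:145247033-145247061, minus strand) begins 181 bases before the start, and that of *Fas* (chr19:34290556-34290584, plus strand) 93 bases before it, both outside annotated genes. The *Tnfrsf9* match (chr4:150927853-150927881, plus strand), 136 bases before the second of 2 starts, lies within the gene but in no exon. Those of *Tnfrsf25* (chr4:152116317-152116345, plus strand) and *Tnfrsf1a* (chr6:125349473-125349497, plus strand), 16 and 244 bases before a start, touch 5′ exons of their genes. The central 3 letters differed between all 6 matches.

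The windows of *Tnfrsf4*, *Cd27* and *Tnfrsf13b* held no such match. Whether a match bears on the level of a receptor was not tested. A loose form of the NF-kB motif, GGG and CC with any 5 bases between them on either strand, occurred in 8 of the 11 windows, from 7 genes, and in 50.8% of all windows, but not in those of *Tnfrsf18* or *Tnfrsf4*. The forkhead letters GTAAACA, on either strand, occurred in 0 of the 11 windows and in 3.65% of all windows. A match of letters is a description of the window and not a binding site.

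**Figure D5:**
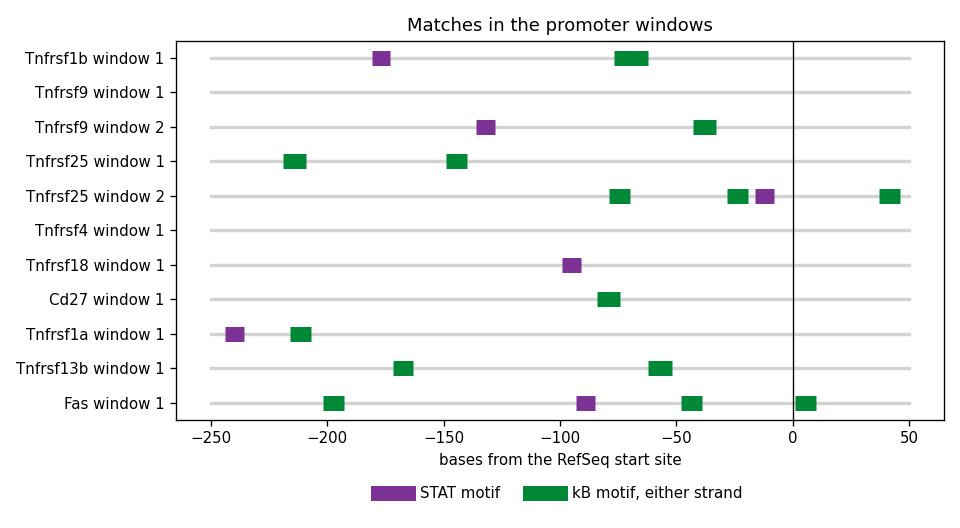
Position of the STAT motif (purple) and the NF-kB motif (green) in the 11 promoter windows of 9 receptor genes, in bases from the RefSeq start site, drawn to scale; grey lines are the windows. The STAT motif is present in 6 windows, between 244 and 16 bases before the start, and the window of *Tnfrsf4* holds neither motif.

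The genes whose levels over the 6 samples were most like those of *Tnfrsf18* and *Fas*, the 2 receptors with the lowest p, were found among all genes tested by the root mean square difference of centred log2 CPM. For *Tnfrsf18*, which spanned 1.43 on the log2 scale, these were *C1qtnf6* (0.0745), *Pelo* (0.0868) and *Ndufa11* (0.111). For *Fas*, which spanned 0.53, these were *Xlr4a* (0.0345), *Frat1* (0.0368) and *Bcas2* (0.0512). None of the 6 is another of the 10 receptors.

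The other genes of the pathway were read from 4 lists. Of 18 other receptors of the family 9 were tested, and 0 had an unadjusted p under 0.05, with a median log2 fold change of 0.02. The groups overlapped in all 9, beside 13.2% of all genes tested without overlap. The 2 highest of them by mean level were *Tnfrsf21* (DR6) and *Tnfrsf14* (HVEM). *Tnfrsf21* had 57.5, 38.5 and 24.7 CPM among OGT-sufficient samples and 14.2, 51.9 and 57.4 CPM among OGT-deficient samples, so it was lowest in the same 2 samples as *Tnfrsf1a* and the macrophage markers. *Tnfrsf14* had a log2 fold change of -0.05 (SE 0.16).

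Of 18 ligands of the family 9 were tested, with 0 at an unadjusted p under 0.05 and a median log2 fold change of 0.02. Of these 9, 1 lower and 1 higher gene had groups that did not overlap, beside 13.2% of all genes tested. *Ltb*, which encodes the membrane anchor of lymphotoxin, was the highest, at 120, 133 and 92.4 CPM among OGT-sufficient samples and 156, 130 and 136 CPM among OGT-deficient samples, a log2 fold change of 0.29 (SE 0.15). It was 0.16 without OGT-sufficient replicate 3, and 0.44 with an unadjusted p under 0.05 without OGT-sufficient replicate 2. *Cd40lg*, the ligand of CD40 on helper T cells, came next, with a log2 fold change of -0.35 (SE 0.25), which was -0.11 without OGT-sufficient replicate 3 and -0.14 without OGT-deficient replicate 3. The ligands of GITR, OX40, 4-1BB, DR3 and CD27 (*Tnfsf18*, *Tnfsf4*, *Tnfsf9*, *Tnfsf15* and *Cd70*, singled out after their values were seen) did not pass the filter, and the highest level of any of them in any sample was 2.78 CPM. *Cd70* had 0 counts in 5 of the 6 samples, and a count of 0 allows up to 3 counts, or between 0.759 and 0.808 CPM, for counting error only.

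All 24 adaptors and proximal signalling genes were tested, 13 of them lower and 11 higher in OGT-deficient cells, with 0 at an unadjusted p under 0.05 and a median log2 fold change of -0.03. The highest 2 were *Casp8* (caspase-8, log2 fold change 0.18, standard error 0.11) and *Cyld* (a deubiquitinase that restrains NF-kB, log2 fold change -0.12, standard error 0.11). The 6 genes *Traf1* to *Traf6* and those of TRADD, FADD and RIPK1 are among these 24, and none had an unadjusted p under 0.05 at this depth. Groups did not overlap in 2 lower and 2 higher genes of the 24, beside 7.48% and 5.72% of all genes tested. These were *Casp8* and *Sharpin* (higher) and *Tank* and the gene of TRADD (lower), named after their values were seen.

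All 10 target and feedback genes of NF-kB were tested, and 3 had an unadjusted p under 0.05, 2 lower and 1 higher. Over all genes tested this share was 7.1% (4.01% lower and 3.09% higher). The median log2 fold change of the 10 was -0.08. *Nfkb2* and *Relb*, which encode the p100/p52 and RelB subunits of the non-canonical NF-kB pathway, were lower. *Nfkb2* had 96.2, 91.9 and 88.5 CPM among OGT-sufficient samples and 58.3, 73.6 and 75.2 CPM among OGT-deficient samples. *Relb* had 28.9, 31.0 and 26.3 CPM among OGT-sufficient samples and 20.4, 23.3 and 18.6 CPM among OGT-deficient samples. *Nfkbiz*, which encodes an inducible nuclear regulator of NF-kB, had 150, 145 and 150 CPM among OGT-sufficient samples and 176, 168 and 186 CPM among OGT-deficient samples. In these 3 genes the groups did not overlap, beside 13.2% of all genes tested. Since the 3 were picked by their unadjusted p, this is not a separate result. The list itself was chosen with earlier results of these data known. In all 3 genes OGT-sufficient replicate 3 lay close to the other OGT-sufficient samples.

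The log2 fold changes were -0.42 for *Nfkb2* (SE 0.13), -0.47 for *Relb* (SE 0.16) and 0.25 for *Nfkbiz* (SE 0.10), and none passed an FDR of 0.1 by edgeR's quasi-likelihood test, with adjusted p = 0.551, 0.565 and 0.669. With each sample left out in turn the unadjusted p of *Nfkb2* was above 0.05 without OGT-sufficient replicate 1. That of *Relb* was above 0.05 without OGT-sufficient replicates 1 or 2 or OGT-deficient replicate 3, and with DESeq2. That of *Nfkbiz* was above 0.05 without OGT-sufficient replicate 2 or OGT-deficient replicates 1 or 3, with scaling by library size only, with edgeR's exact test and with the replicate block. *Tnfaip3* (A20) and *Tnip1*, feedback inhibitors of NF-kB and the highest 2 of the list, had log2 fold changes of 0.06 (SE 0.15) and -0.07 (SE 0.13).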

How the data were processed

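RNA of YFP+ Treg cells was sequenced as 2x50 paired-end reads in 3 samples of each genotype, and groups follow the genotype in the labels. The authors trimmed reads with Trimmomatic 0.33, checked them with FastQC and mapped them with Bowtie2 2.2.4.0. For the counting step the methods name Cuffquant and the submitters' processing notes name featureCounts, with the mm10 build, while annotation, strand setting and the handling of shared reads are not given in the sources used here. The deposited table holds whole-number counts per gene and sample, used as raw counts. Another 11 columns hold the authors' own comparison (range, interquartile range, group means, difference, fold change, p-value, Bonferroni and FDR values) and were not used.

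Counts were tested in R 4.3.3 with edgeR 4.0.16 and limma 3.58.1 (glmQLFit and glmQLFTest, TMM scaling, filterByExpr with a minimum count of 10, no replicate block), with Benjamini-Hochberg adjustment over all 10949 genes tested. DESeq2 1.42.0 and the other alternatives were each run over the whole table. The script was tested on simulated data. Replicates of a group differed by more than sampling noise, which does not show that they were separate mice. Each was counted as 1 sample. Coordinates, lengths and overlaps came from GENCODE M21 (GRCm38) by symbol, and promoter windows from RefSeq GRCm38.p6, matched by symbol for 9 of the 10 genes. Levels per length and ratios were computed in Python 3.11.15 without a test. A floor of 3 counts, used where a gene had 0, covers counting error only. The 10 genes and the lists of receptors, ligands, adaptors, NF-kB genes and cell markers were chosen with earlier results of these data known. Beside the 10 genes, the text names *Ogt*, *Foxp3* and cell markers, from the 4 pathway lists the genes with an unadjusted p under 0.05 and the 2 highest of each by mean CPM, and the 3 genes nearest in pattern to the 2 receptors of lowest p. Further ligand and adaptor genes are named where these lists are read.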

Additional observations from a re-analysis of the deposited data

How the results depend on the processing

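None of the 10 receptors passed an FDR of 0.1 in any of the 13 alternative fits, and the lowest adjusted p of any of them was 0.197. *Tnfrsf18* was positive in all 13, with an unadjusted p under 0.05 in 11. Leaving out 1 sample at a time gave 0 to 1 receptors at an unadjusted p under 0.05, also among those higher in OGT-deficient cells, and 2 to 4 without overlap between groups, beside 19.5% to 24.9% of all genes tested in those fits. Relative to *Foxp3* counts, 0 receptors were without overlap (11% of all genes), and 1 relative to *Cd3e*, *Cd3d* and *Cd4* (14%), both scales chosen after seeing the data. Over all genes, 777 had an unadjusted p under 0.05 (439 lower, 338 higher). There were 502 with DESeq2 (247 lower) and 1208 without a low-count filter (610 higher). With scaling by library size only 210 were higher, and 67.4% of the calls were lower against 56.5%. Without 1 sample there were 462 to 888 (205 to 430 lower), the fewest without OGT-deficient replicate 2. At an FDR of 0.1, 3 genes passed, against 40 with DESeq2, 80 with edgeR's exact test, 131 without a filter, and 0 to 9 without 1 sample, with 0 without OGT-deficient replicate 2 or 3 and 9 without OGT-sufficient replicate 3.

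Replicate numbers gave no sign of pairing, as deviations from the group means of same-numbered samples had correlations of -0.281, 0.00726 and -0.118 over genes. With the replicate block, 679 genes had an unadjusted p under 0.05, 0 passed an FDR of 0.1, *Tnfrsf18* had a log2 fold change of 0.62, *Nfkbiz* was no longer under 0.05 and *Tnfrsf21* one of -0.049.

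Log2 fold changes near 0 changed sign. *Tnfrsf1a* was 0.0041 with DESeq2. Without a filter *Tnfrsf1a* was 0.031, *Tnfrsf26* 0.0095 and *Cd27* 0.010. With library size only *Tnfrsf21* was -0.012 and *Tnfaip3* -0.0053. Without 1 sample the range was -0.13 to 0.17 for *Tnfrsf1a*, -0.15 to 0.30 for *Tnfrsf9*, -0.16 to 0.14 for *Tnfrsf25*, -0.12 to 0.084 for *Tnfrsf26* and -0.17 to 0.10 for *Cd27*. It was -0.25 to 0.44 for *Tnfrsf21*, -0.14 to 0.088 for *Tnfrsf14*, -0.051 to 0.16 for *Tnfaip3* and -0.14 to 0.081 for *Tnip1*. The median log2 fold change over the genes of the main fit also moved. It was -0.017 in the main fit, 0.0025 with DESeq2, 0.032 without a filter and -0.063 with library size only. The part of this move in the changes of sign was not tested. With 48 to 81 counts per sample for *Tnfrsf25*, and 3 samples a group, differences well under 2-fold could not be resolved.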
